A study of Mus musculus with 24 samples.

Results

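Canonical Wnt signalling is read in the nucleus by the Tcf/Lef family, and this account follows 9 genes of that branch through the early differentiation of OV (optic vesicle) organoids: the factors Tcf7, Tcf7l1, Tcf7l2 and Lef1, their coactivator Ctnnb1, and the feedback targets Axin2, Sp5, Notum and Nkd1. They were taken by symbol from a table of 49705 gene entries, and all 9 were present and passed the filter on low values. RNA was measured in 24 libraries. They fall into 8 groups with 3 replicates each: live cells of days 0 to 3, taken without a GFP gate, and the GFP-positive and GFP-negative gates of days 4 and 5. By the methods of the study, cells of all days passed through the sorter to select live single cells. All groups came from 1 mESC line, Rx-GFP K/I EB5, in which GFP was knocked into the Rax locus, so that GFP marks cells that express this eye field gene. On day 0 cells were plated at 4500 per organoid, Matrigel was added at 2% on day 1, and 24 organoids were pooled per sample. The labels name GMEM with 1.5% KOSR, a serum replacement, as the differentiation medium of all 24 samples, whereas the methods of the study keep that medium for knockout organoids and name a chemically defined medium without growth factors for the initial ones, so the medium of these libraries is uncertain. The labels give no treatment for day 0 and optic vesicle organoid differentiation for the sorted day 5 cells. No Wnt agonist or inhibitor is named in the labels of these libraries. The GFP-negative gate also took cells of low GFP, and the day 3 samples held all live cells whatever their GFP, so the gates are not pure cell types.

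When a Wnt ligand binds its receptors, β-catenin (the product of Ctnnb1) escapes destruction, enters the nucleus and binds Tcf/Lef proteins on DNA. Without β-catenin these proteins hold targets down together with Groucho/Tle corepressors. Tcf7l1 is known mainly as a repressor, which restrains pluripotency genes in mESCs and Wnt targets in the anterior neural plate, whereas Tcf7 and Lef1 act mostly as activators and Tcf7l2 can do both. Among the targets, Axin2 is a scaffold of the destruction complex and Nkd1 binds Dishevelled, so both act against the pathway inside the cell. Notum is a secreted enzyme that inactivates Wnt proteins. Sp5 is a zinc-finger transcription factor of the Sp family that is induced by Wnt and acts on other Wnt targets.

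The normalized counts of a library summed to 39849111 at the lowest and 51587535 at the highest. Replicate 1 of day 0 stood apart: its rank correlation with the other day 0 libraries was 0.953 to 0.954, against 0.979 to 0.993 for the other 22 pairs of replicates. It also differed in the genes described here, with 75787 normalized counts of Ctnnb1 where the other day 0 libraries had 37242 and 34424. It enters the shared estimate of the spread, so it can also move comparisons of other days, and outcomes that changed when it was left out are named with the comparison. The gates matched their labels: the summed level of 5 eye field markers (Rax, Pax6, Lhx2, Six3 and Six6) was 45893 to 47745 in GFP-positive and 8869 to 10833 in GFP-negative cells on day 4, and 54804 to 57307 against 8351 to 9094 on day 5. GFP was knocked into Rax, so the part of Rax in these sums was set by the sorting. By the call rule given below, all 5 were higher in GFP-positive cells on both days (0.328% and 0.4% of all genes). In bulk samples like these, fewer cells of a type and less RNA per cell cannot be told apart.

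The Tcf/Lef genes changed composition as cells entered the GFP-positive state. On day 4 Tcf7 and Lef1 were lower in GFP-positive than in day 3 cells, Tcf7l2 was higher, and Tcf7l1 differed by less than its spread. A gene was called when its log2 fold change was beyond 1.5 either way with an adjusted p by limma below 0.001, and a second rule asked only for an adjusted p below 0.05. By the call rule none of the 4 factors passed in this contrast, where 3.33% of all genes were called up and 7.36% down. By the second rule Tcf7l2 rose, and Tcf7 and Lef1 fell (17.1% of all genes up, 20.9% down).

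Tcf7 lies on chromosome 11 (mm10, 52252371-52283331, minus strand). It had 1883, 3360 and 2335 normalized counts on day 0, 4415, 4150 and 4358 on day 1, and 5054, 5124 and 4838 on day 2. On day 3 the values were 4966, 4771 and 4830. In GFP-positive cells they were 1878, 2064 and 1959 on day 4 and 2115, 2535 and 2281 on day 5, and in GFP-negative cells 3578, 3989 and 4383 on day 4 and 3685, 3702 and 3490 on day 5. The 6 GFP-positive libraries lay below all libraries of days 1 to 3 and below all 6 GFP-negative libraries, and overlapped only with those of day 0. Tcf7 first rose from day 0 to day 1 by 0.81 on the log2 scale (SE 0.14, adjusted p = 0.000524 by limma). In a fit of the day 0 and day 1 libraries alone Tcf7 did not pass the second rule (adjusted p = 0.187). In GFP-positive cells of day 4, against day 3, it fell by 1.30 (SE 0.14, adjusted p = 1.33e-07), a 2.47-fold decrease. Towards GFP-negative cells its difference from day 3 was −0.29 (adjusted p = 0.162).

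Tcf7l2 lies on chromosome 19 (55741820-55933654, plus strand) and ran the other way. Its normalized counts were 482, 800 and 506 on day 0, 544, 480 and 522 on day 1, 499, 596 and 569 on day 2, and 594, 924 and 837 on day 3. In GFP-positive cells they reached 2175, 2053 and 2001 on day 4 and 2138, 2653 and 1719 on day 5, while GFP-negative cells had 1055, 1197 and 965 on day 4 and 1143, 1078 and 1088 on day 5. All 6 GFP-positive libraries lay above the other 18. The difference between day 4 GFP-positive and day 3 cells was 1.43 on the log2 scale (SE 0.18, adjusted p = 1.82e-06), a 2.69-fold rise just short of the fold that a call required. Between the gates Tcf7l2 was higher in GFP-positive cells by 0.96 on day 4 (adjusted p = 0.000609) and by 0.95 on day 5 (adjusted p = 0.000565). From day 4 to day 5 within GFP-positive cells the difference was 0.042 (95% interval −0.34 to 0.42).

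Lef1 lies on chromosome 3 (131110471-131224356, plus strand). In GFP-positive cells it had 1565, 1771 and 1598 normalized counts on day 4 and 1315, 2084 and 1502 on day 5. GFP-negative cells had 2495, 3518 and 3616 on day 4 and 2148, 2729 and 1995 on day 5, and day 3 cells 2057, 2741 and 2814. On day 4 the gates did not overlap, whereas on day 5 GFP-positive replicate 2 lay within the GFP-negative range. Within each same-numbered pair of day 5 the GFP-positive library was lower, and the fit described did not pair them. Earlier libraries held 2038 to 3260 on day 0, 3079 to 3461 on day 1 and 3209 to 3793 on day 2. On day 4 the difference of Lef1 between the gates, GFP-positive minus GFP-negative, was −0.95 on the log2 scale (SE 0.19, adjusted p = 0.00103). On day 5 the difference was −0.50 (adjusted p = 0.0811). It passed the second rule without day 0 replicate 1 (adjusted p = 0.0312), without day 5 GFP-positive replicate 2 (−0.69, adjusted p = 0.0201) and under quantile normalization (−0.60, adjusted p = 0.042). The fall from day 3 to day 4 GFP-positive cells, −0.61 (adjusted p = 0.0137), passed no threshold without day 3 replicate 2 (adjusted p = 0.0565) or replicate 3 (adjusted p = 0.0608).

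Tcf7l1 lies on chromosome 6 (72626378-72789254, minus strand). Outside day 0 and GFP-negative cells its values stayed in a narrow band, with 7091 to 7607 normalized counts on day 1, 7031 to 7704 on day 2, 7243 to 8595 on day 3, 7425 to 7991 in day 4 and 6507 to 8314 in day 5 GFP-positive cells. GFP-negative cells had 6632, 6788 and 6799 on day 4 and 4950, 4358 and 3475 on day 5, so the day 5 GFP-negative libraries lay below all but 1 of the others, day 0 replicate 1. The day 0 libraries spread widely, at 3370, 11707 and 7304. Between day 4 GFP-positive and day 3 cells the difference was −0.013 on the log2 scale (95% interval −0.55 to 0.52, adjusted p = 0.979). On day 5 Tcf7l1 was higher in GFP-positive cells by 0.82 (SE 0.26, adjusted p = 0.0315). That difference did not pass when day 5 GFP-negative replicate 2 (adjusted p = 0.0689) or replicate 3 (0.15), or GFP-positive replicate 1 (0.0835) or replicate 2 (0.113), was left out, or with no filter on low values (0.0501).

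**Figure D1:**
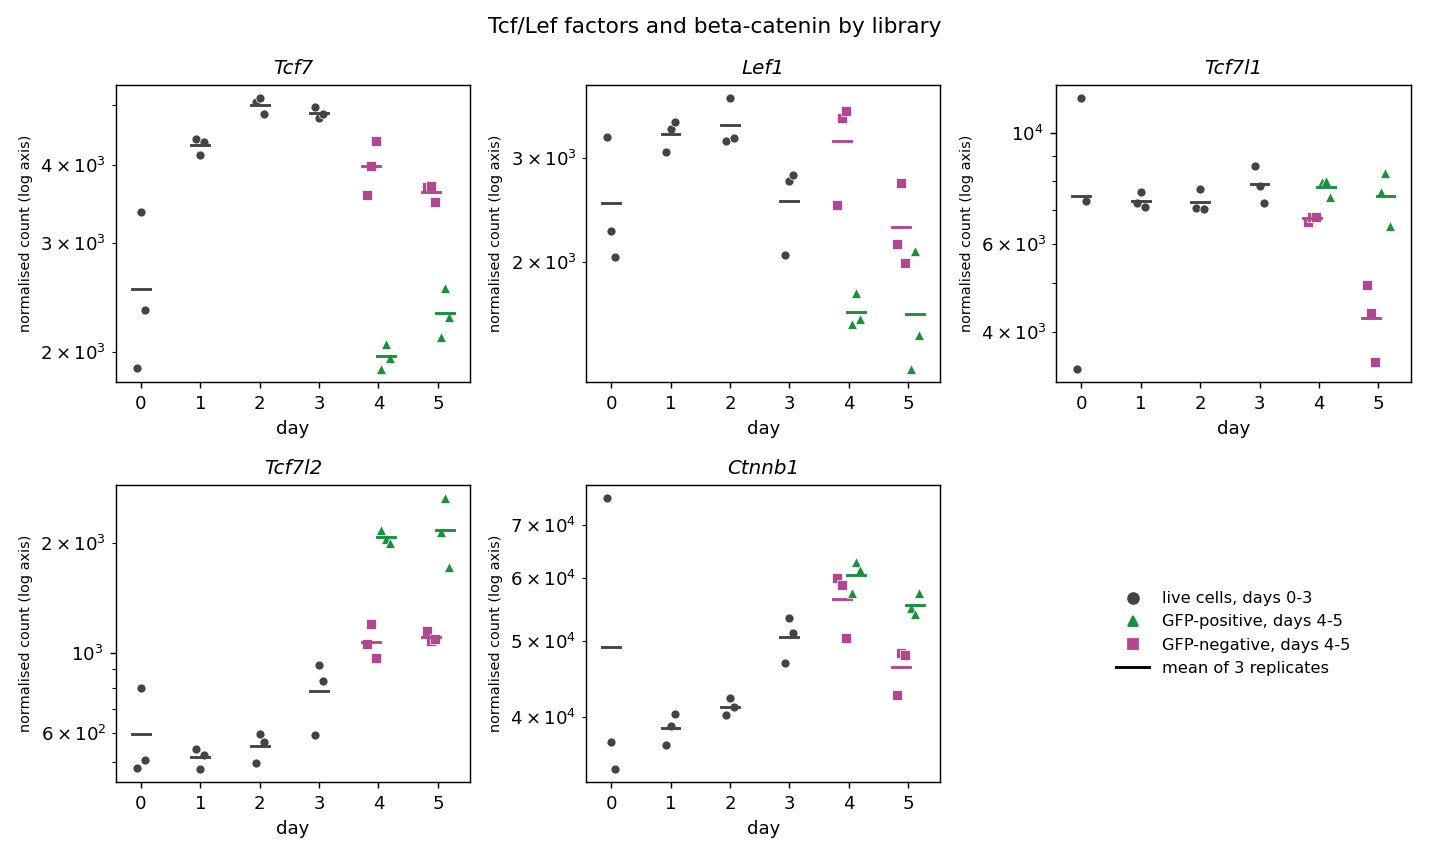
Normalised counts (log axis) of Tcf7, Tcf7l1, Tcf7l2, Lef1 and Ctnnb1 by day, 1 point per library and lines through the group means, for live cells of days 0 to 3 and for GFP-positive and GFP-negative cells of days 4 and 5. Tcf7 falls and Tcf7l2 rises in the GFP-positive libraries, whereas Ctnnb1, apart from 75787 in day 0 replicate 1, runs from 34424 on day 0 to 62904 in GFP-positive cells of day 4.

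Dividing each gene by the length of its longest coding transcript makes levels comparable between genes. On this scale, per kilobase, Tcf7l1 made up the largest share of the 4 Tcf/Lef genes on day 3, at 47.1% ± 3.18 (SD, n = 3), followed by Tcf7 at 35.8% ± 0.788, Lef1 at 13.3% ± 2.38 and Tcf7l2 at 3.85% ± 0.868. In day 4 GFP-positive cells the share of Tcf7l1 was 58.4% ± 0.893 and that of Tcf7 18.1% ± 0.822, and Tcf7l2, at 12.7% ± 0.513, stood above Lef1, at 10.8% ± 0.542. In day 4 GFP-negative cells the order of the genes was that of day 3, with 44.1% ± 2.64 for Tcf7l1, 32.0% ± 1.27 for Tcf7, 18.2% ± 2.34 for Lef1 and 5.75% ± 0.742 for Tcf7l2. Their ranges overlapped with those of day 3 for Tcf7l1 only, Tcf7 being lower and Lef1 and Tcf7l2 higher. By day 5 Tcf7l1 held 55.3% ± 2.35 in the GFP-positive gate. In the GFP-negative gate it held 36.5% ± 3.48, beside 38.5% ± 2.41 for Tcf7. With the mean length of the coding transcripts in place of the longest, day 5 GFP-negative cells had 41.6% to 49.0% for Tcf7l1 and 31.1% to 35.7% for Tcf7, so the order of the leading pair in that group depends on the length used. These shares carry no test.

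A ratio within a library does not depend on the scaling of that library. The log2 ratio of normalized counts of Tcf7l2 to Tcf7, with no correction for length, was −2.65 ± 0.36 (SD, n = 3) on day 3, −1.89 ± 0.25 in day 4 GFP-negative cells and 0.078 ± 0.12 in day 4 GFP-positive cells. On day 5 it was −1.72 ± 0.055 in GFP-negative and −0.11 ± 0.26 in GFP-positive cells. The ratio was thus near parity in both GFP-positive groups and negative in all others, down to −3.18 ± 0.14 on day 2. Tcf7l1 against Lef1 gave 1.65 ± 0.37 on day 3, 2.25 ± 0.092 in day 4 GFP-positive and 1.09 ± 0.28 in day 4 GFP-negative cells.

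Ctnnb1, on chromosome 9 (120929216-120960507, plus strand), encodes β-catenin, which is regulated mainly through protein stability, so that its RNA is not a measure of pathway activity. Its normalized counts were 46899, 53452 and 51139 on day 3. On day 4 GFP-positive cells had 57518, 62904 and 61526 and GFP-negative cells 60124, 58891 and 50357. On day 5 the values were 55089, 54090 and 57490 in GFP-positive and 42677, 48212 and 47933 in GFP-negative cells. The gates overlapped on day 4 and did not on day 5. Ctnnb1 passed neither rule in any comparison across the 24 libraries, with −0.28 to 0.29 as the range of its log2 differences. Without day 0 replicate 1, the differences from day 0 were 0.49 on day 3 (adjusted p = 0.000141) and 0.63 in day 5 GFP-positive cells (adjusted p = 3.78e-06), and the second rule was also passed by day 4 GFP-positive against day 3 cells (adjusted p = 0.0115), day 3 against day 2 (0.29, adjusted p = 0.0137), the gates of day 5 (0.27, adjusted p = 0.0228) and GFP-negative cells of day 5 against day 4 (−0.28, adjusted p = 0.0196). Under quantile normalization it was passed by day 4 GFP-positive against day 3 (0.43, adjusted p = 0.0195) and day 5 GFP-positive against day 0 (0.58, adjusted p = 0.00114). In fits of only the groups compared it was passed by day 3 against day 2 (adjusted p = 0.0296) and day 4 GFP-positive against day 3 (adjusted p = 0.0397). Whether Ctnnb1 passed the second rule thus depended on day 0 replicate 1, on the normalization and on the samples in the fit. The gene overlaps Ulk4, which is coded on the opposite strand, and whether counting used strand is not given in the sources used here.

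The feedback targets moved apart from each other before the gates were sorted and then split along the gates. Axin2, Sp5 and Nkd1 were far higher in GFP-negative than in day 3 cells. Notum had fallen already by day 3, and in GFP-positive cells it fell further. In the comparison of the gates all 4 targets were lower in GFP-positive cells on both days by the second rule, as were 11.3% of all genes on day 4 and 12.3% on day 5.

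Axin2, on chromosome 11 (108920349-108950783, plus strand), is the most general of the Wnt feedback targets. It had 366, 736 and 619 normalized counts on day 0, 831, 1355 and 913 on day 1, 1035, 1036 and 968 on day 2, and 1164, 1074 and 982 on day 3. GFP-negative cells had 3510, 4125 and 4693 on day 4 and 7054, 6558 and 6366 on day 5, whereas GFP-positive cells had 1081, 1206 and 1615 on day 4 and 1914, 2232 and 1812 on day 5. All GFP-negative libraries lay above all others, and the day 4 GFP-positive range overlapped with that of day 3. The rise from day 3 to day 4 GFP-negative cells was 1.93 on the log2 scale (SE 0.21, adjusted p = 1.01e-06), or 3.81-fold, against 0.26 towards GFP-positive cells (95% interval −0.17 to 0.69, adjusted p = 0.362). Between the gates Axin2 was 3.18-fold lower in GFP-positive cells on day 4 (adjusted p = 4.46e-06) and 3.36-fold lower on day 5 (adjusted p = 2.04e-06).

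Nkd1, on chromosome 8 (88521354-88594884, plus strand), rose in both gates. Its normalized counts were 118, 146 and 78.7 on day 0, 184, 134 and 151 on day 1, 323, 318 and 279 on day 2, and 477, 399 and 435 on day 3. In GFP-negative cells they were 1872, 2486 and 3228 on day 4 and 3609, 3324 and 2986 on day 5. GFP-positive cells had 1095, 1090 and 1035 on day 4 and 1509, 1755 and 1621 on day 5. From day 1 onward no range of Nkd1 overlapped with that of another day among the live cells and the GFP-positive cells. Against day 3, day 4 GFP-negative cells differed by 2.50 on the log2 scale (adjusted p = 9.52e-09) and GFP-positive cells by 1.30 (SE 0.19, adjusted p = 1.27e-05). Both comparisons share the day 3 libraries. Between the gates Nkd1 was 2.30-fold lower in the GFP-positive one on day 4 (adjusted p = 9.33e-05) and 2.03-fold lower on day 5 (adjusted p = 0.000496).

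Sp5, on chromosome 2 (70474923-70477729, plus strand), showed the widest range. It was near the limit of detection early, with 39.1, 31.6 and 15.98 normalized counts on day 0, 17.0, 1.84 and 4.34 on day 1 and 13.8, 12.8 and 9.66 on day 2, where 1 read was worth an estimated 0.877 to 1.40 normalized counts. On day 3 it had 305, 226 and 183. GFP-negative cells then held 1446, 2135 and 2267 on day 4 and 2060, 1772 and 1848 on day 5, whereas GFP-positive cells held 113, 120 and 190 on day 4 and 177, 235 and 205 on day 5. The GFP-negative libraries were therefore all above the other 18, and the GFP-positive libraries overlapped with day 3. Sp5 rose between days 2 and 3 by 4.17 on the log2 scale (SE 0.44, adjusted p = 2.84e-06), and a further rise to day 4 GFP-negative cells was 3.04 (SE 0.44, adjusted p = 3.95e-05), or 8.20-fold. Between the gates Sp5 was 13.9-fold lower in GFP-positive cells on day 4 (adjusted p = 1.87e-06) and 9.21-fold lower on day 5 (adjusted p = 1.42e-05).

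Notum, on chromosome 11 (120653788-120661175, minus strand), had a course unlike that of the other targets. It had 1560, 3330 and 3120 normalized counts on day 0, 2921, 2602 and 2736 on day 1, 971, 1042 and 990 on day 2, and 252, 354 and 316 on day 3. GFP-negative cells held 262, 232 and 229 on day 4 and 279, 270 and 277 on day 5, and GFP-positive cells 63.6, 95.7 and 51.9 on day 4 and 39.0, 51.6 and 61.7 on day 5. All 6 GFP-positive libraries lay below all 18 others. Its successive log2 differences were −1.46 between days 1 and 2 (adjusted p = 0.000197), −1.71 between days 2 and 3 (adjusted p = 5.47e-05) and −2.14 between day 3 and day 4 GFP-positive cells (SE 0.24, adjusted p = 2.72e-07). Towards GFP-negative cells the difference was −0.34 (95% interval −0.83 to 0.16, adjusted p = 0.389). Set against the GFP-negative gate, GFP-positive cells had 3.50-fold less Notum on day 4 (adjusted p = 9.19e-06) and 5.43-fold less on day 5 (adjusted p = 1.38e-07). Notum overlaps Notumos and Myadml2os on the opposite strand, and reads of the strands could not be told apart without a stated strand setting. The same limit holds for Tcf7, Tcf7l1, Lef1 and Axin2, which also overlap genes on the opposite strand. Tcf7 overlaps a non-coding gene, Gm26551, on its own strand too.

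**Figure D2:**
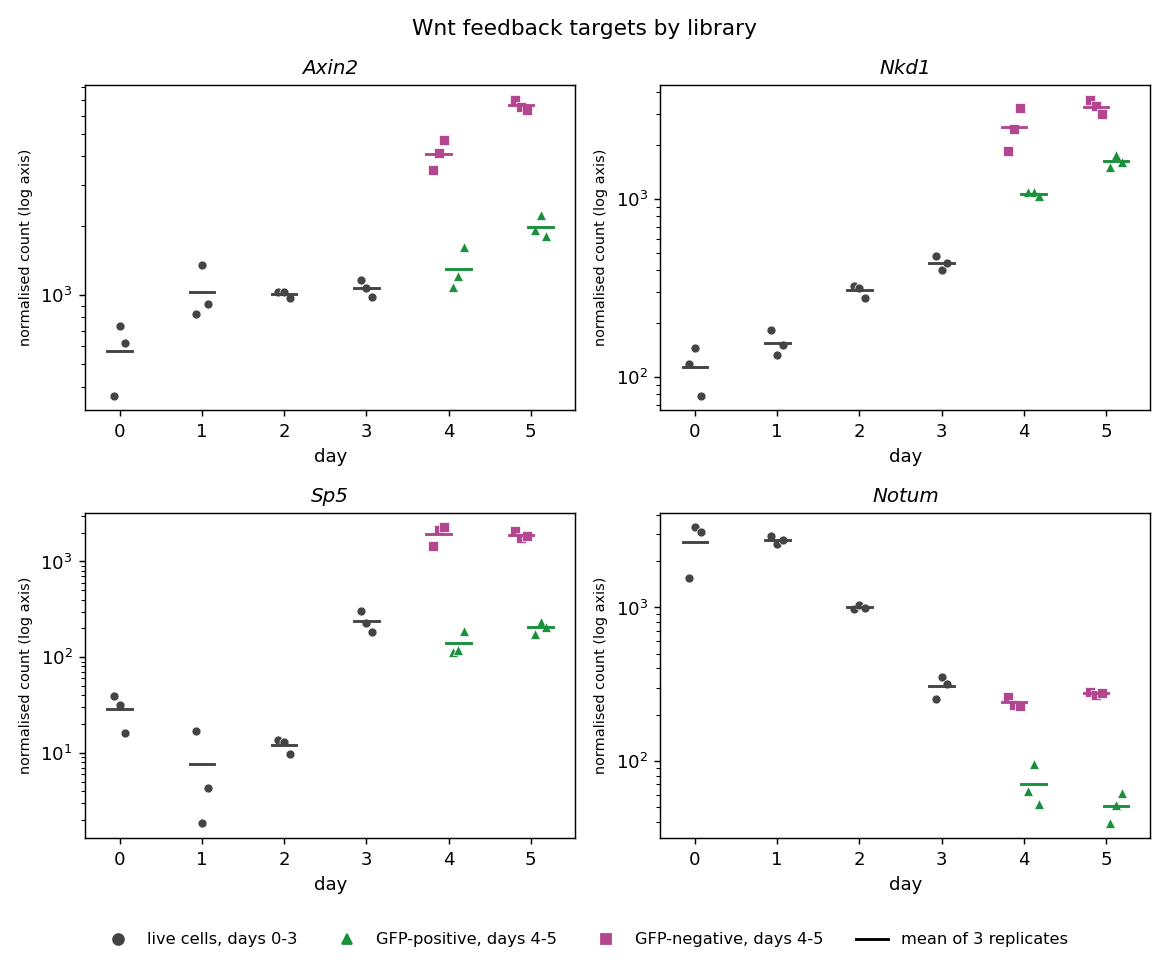
Normalised counts (log axis) of Axin2, Sp5, Notum and Nkd1 by day, 1 point per library and lines through the group means, for live, GFP-positive and GFP-negative cells. Axin2, Sp5 and Nkd1 are highest in GFP-negative cells, and Notum is lowest in GFP-positive cells at 39.0 to 95.7.

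As a description of sequence, the 250 bases before the annotated start of the members' promoters in RefSeq (GRCm38.p6) were searched on both strands for the Tcf/Lef core letters CTTTGAT and CTTTGTT, which do not overlap in any promoter shown. Entries were found for 8 of the 9 members, 14 entries in all. Notum had no entry and was not searched. Of 32851 promoter windows of the same length, 3.21% held the first, 5.03% the second and 8.06% either. Sp5, the target with the largest gate difference, held both, and the window of Axin2, another target with a called rise in GFP-negative cells, is set beside it, with matches in capitals and the rest in lower case, each 5′ to 3′ on the plus strand, at chr2:70474673-70474922 and chr11:108920099-108920348.
Sp5: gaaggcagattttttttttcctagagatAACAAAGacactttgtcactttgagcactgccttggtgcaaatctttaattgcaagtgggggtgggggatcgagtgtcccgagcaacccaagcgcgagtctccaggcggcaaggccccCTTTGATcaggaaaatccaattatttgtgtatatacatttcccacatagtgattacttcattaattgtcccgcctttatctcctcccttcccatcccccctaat
Axin2: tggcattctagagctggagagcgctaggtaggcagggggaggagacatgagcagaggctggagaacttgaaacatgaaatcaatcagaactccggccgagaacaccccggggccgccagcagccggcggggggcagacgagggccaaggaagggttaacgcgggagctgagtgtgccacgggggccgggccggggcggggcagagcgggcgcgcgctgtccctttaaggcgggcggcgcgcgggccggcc
The Sp5 window held AACAAAG, the reverse complement of CTTTGTT, starting 222 bases before the start, and CTTTGAT starting 104 bases before it. The Axin2 window held neither. Among the other members only the second entry of Tcf7l2, at chr19:55895071-55895320, had a match, CTTTGTT at 14 bases before that start. A match describes letters only, and these libraries hold no measure of binding.

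Counted over the 9 genes, the days before GFP gating moved mainly the targets. From day 0 to day 1 no member was called, against 0.343% of the 21005 tested genes called up and 0.395% called down. By the second rule Tcf7 and Axin2 rose and Sp5 fell (5.23% and 4.79% of genes). The rise of Axin2, 0.87, did not pass without day 1 replicate 2 (adjusted p = 0.0633), and in a fit of only the day 0 and day 1 libraries none of these 3 passed (adjusted p = 0.187 for Tcf7, 0.308 for Axin2 and 0.296 for Sp5). Lef1, at 0.42 (adjusted p = 0.19), passed without day 0 replicate 1 (0.62, adjusted p = 0.0274). Leaving out that library also turned the direction of Tcf7l1 (from 0.15 to −0.34), Ctnnb1 (from −0.25 to 0.11) and Notum (from 0.12 to −0.23), none of which passed either rule. The direction of Tcf7l2 turned without day 0 replicate 2 (from −0.17 to 0.059). Nkd1, at 0.48 (adjusted p = 0.131), passed without day 0 replicate 2 (0.68, adjusted p = 0.0259). From day 1 to day 2 again none was called (0.943% up, 0.528% down), and by the second rule Nkd1 rose by 0.98 (adjusted p = 0.00108) and Notum fell (9.03% up, 7.54% down). Sp5, at 1.00 (adjusted p = 0.137), passed without day 1 replicate 1 (1.74, adjusted p = 0.0016), and Tcf7, at 0.22, in a fit of these groups alone (adjusted p = 0.0178). From day 2 to day 3 Sp5 was called up and Notum down, where 0.714% and 0.29% of genes were called. Across the 24 libraries no other member passed the second rule, which 7.46% of genes passed upward and 6.99% downward. Tcf7l2, at 0.48 (adjusted p = 0.0828), passed it without day 0 replicate 1 (0.0436) or 2 (0.037) and without day 3 replicate 1 (0.67, adjusted p = 0.0189). Nkd1, at 0.51 (adjusted p = 0.0807), passed it without day 0 replicate 2 (0.0495) or 3 (0.0366) and in a fit of these groups alone (0.0189), in which Lef1 also passed (−0.44, adjusted p = 0.0466). Over the whole span from day 0 to day 3, Sp5 (3.06, adjusted p = 9.09e-06) and Nkd1 (1.97, adjusted p = 4.22e-08) were called up and Notum down (−3.05, adjusted p = 1.59e-09), against 5.91% and 6.12% of genes, while Tcf7 (0.98) and Axin2 (0.96, adjusted p = 0.000745) passed the second rule only, as 21.1% of genes did upward and 22.6% downward, called ones included. In a fit of the day 0 and day 3 libraries alone, Notum was the only member called, with adjusted p of 0.00138 for Sp5 and 0.00192 for Nkd1. Tcf7l1, at 0.25, had no stable direction: it turned to −0.23 without day 0 replicate 1 (adjusted p = 0.214) and passed the second rule at 0.66 without day 0 replicate 2 (adjusted p = 0.013). Tcf7l2, at 0.41 (adjusted p = 0.0731), passed it without day 0 replicate 2 (0.64, adjusted p = 0.00466) or day 3 replicate 1 (0.60, adjusted p = 0.0128).

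From day 3 onward the comparisons were made separately for each gate. Towards GFP-positive cells 1 member, Notum, was called down and none up, where 7.36% and 3.33% of genes were. The second rule gave 2 members up, Tcf7l2 and Nkd1, and 3 down, Tcf7, Lef1 and Notum (17.1% and 20.9% of genes). Sp5, at −0.76 (adjusted p = 0.195), passed it in a fit of these groups alone (adjusted p = 0.04). Tcf7l2 also met the call rule when day 3 replicate 2 was left out. Towards GFP-negative cells 3 members, Axin2, Sp5 and Nkd1, were called up and none down, where 2% of genes were called up and 0.871% down. No other member passed the second rule, which 9.49% of genes passed upward and 9.01% downward, and the factors had differences from −0.29 for Tcf7 to 0.47 for Tcf7l2 (adjusted p = 0.0804). Tcf7l2 passed it without day 0 replicate 1 (0.045) or 2 (0.0343) or day 3 replicate 2 (0.0476), and Tcf7 without day 0 replicate 1 (0.0409) or 2 (0.0348). Both comparisons use the same day 3 libraries, and the comparisons of the gates use the same day 4 libraries.

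Between the gates on day 4, the 3 targets Axin2, Sp5 and Notum were called lower in GFP-positive cells and no member was called higher, where 3.63% of genes were called lower and 0.328% higher. By the second rule 6 members were lower and 1, Tcf7l2, was higher (11.3% and 4.43% of genes). On day 5 the same 3 targets were called lower (4.61% of genes) and none higher (0.4%), and by the second rule 5 members were lower and 2, Tcf7l2 and Tcf7l1, higher (12.3% and 3.78%). Tcf7 was lower in GFP-positive cells by 1.01 on day 4 (coded −1.01, adjusted p = 1.34e-05) and by 0.65 on day 5 (coded −0.65, adjusted p = 0.00155). In a fit of the day 4 gates alone Notum missed the call rule (adjusted p = 0.00151). The change of the gate difference between the days was tested directly: none of the 9 members passed either rule, with values from −0.64 for Notum (95% interval −1.34 to 0.064) to 0.61 for Tcf7l1 (−0.15 to 1.36) and adjusted p from 0.602 to 1. The unadjusted intervals of all 9 held 0. Over all genes 0.0762% were called with a rise and 0.0333% with a fall of the gate difference, and 0.528% and 0.571% passed the second rule.

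**Figure D3:**
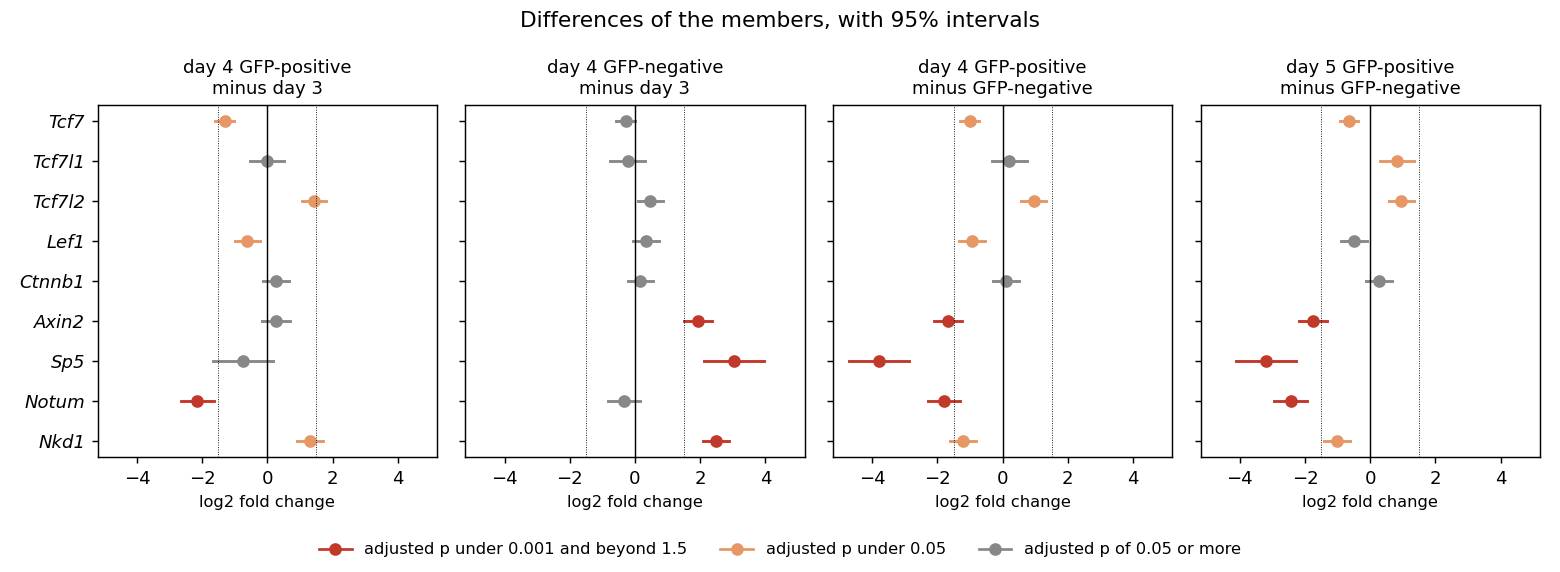
Log2 fold changes of the 9 genes with 95% intervals from limma in 4 comparisons, coloured by whether they met the call rule, only an adjusted p under 0.05, or neither, with dotted lines at 1.5 either side of 0. The 4 targets lie to the left of 0 in both gate comparisons, and among the factors only Tcf7l2 lies to the right with an adjusted p under 0.05 on both days.

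Within a gate, no member was called from day 4 to day 5. In GFP-positive cells no member passed either rule, where 0.595% of genes were called up, 0.89% down, and 4.57% and 5.24% passed the second rule. The differences nearest to it were Axin2 at 0.63 (adjusted p = 0.0636) and Nkd1 at 0.60 (adjusted p = 0.0527), and both passed in a fit of these 2 groups alone (adjusted p = 0.0197 and 0.00172) and without day 0 replicate 1 (0.00908 and 0.0342) or 2 (0.0377 and 0.0282). Axin2 also passed without day 4 GFP-positive replicate 3 (0.79, adjusted p = 0.032) or day 1 replicate 2 (0.0407), and Nkd1 without day 0 replicate 3 (0.0185) or GFP-negative replicate 1 (0.0338) or 3 (0.0329) of day 4, with a pseudocount of 5 (0.0481) and with a filter of 50 normalized counts (0.0451). In GFP-negative cells Axin2 rose by the second rule alone, by 0.71 (adjusted p = 0.0327), where 5.72% of genes rose and 4.45% fell by it and 0.762% and 0.509% were called. That adjusted p was 0.0734 to 0.135 when GFP-negative replicate 1 or 2 of day 4, or any replicate of day 5, was left out, 0.0514 with no filter on low values and 0.0503 without a trend. Tcf7l1 was lower on day 5, at −0.68 with no overlap between the days (adjusted p = 0.104), and it passed the second rule in a fit of these 2 groups alone (adjusted p = 0.0134) and without day 0 replicate 1 (0.00144) or 2 (0.0192). Lef1, at −0.48 (adjusted p = 0.121), passed without day 0 replicate 1 (0.0475). Set against day 0, day 5 GFP-positive cells had 4 members called up, Tcf7l2 (1.88), Axin2 (1.84), Sp5 (2.87) and Nkd1 (3.86), and 1 down, Notum (−5.64), where 11.2% and 14.9% of genes were called. Lef1 fell by 0.62 by the second rule (adjusted p = 0.0072), among 32.1% of genes that fell and 29.3% that rose by it, and did not pass without day 0 replicate 1 (adjusted p = 0.0509), without day 5 GFP-positive replicate 1 (adjusted p = 0.053) or in a fit of these groups alone (adjusted p = 0.075), in which Axin2 also missed the call rule (adjusted p = 0.00116). Tcf7, at −0.091 (adjusted p = 0.586), passed the second rule without day 0 replicate 1 (−0.28, adjusted p = 0.0368) and turned to 0.14 without day 0 replicate 2 (adjusted p = 0.28). Tcf7l1, at 0.17, turned to −0.31 without day 0 replicate 1 (adjusted p = 0.0777) and passed without day 0 replicate 2 (0.58, adjusted p = 0.0188).

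The factor ratio and the target levels were set against each other library by library. Libraries form separate clusters by gate, so no correlation is given over all of them. The GFP-positive cluster combined a Tcf7l2 to Tcf7 log2 ratio of −0.41 to 0.21 with Axin2 of 1081 to 2232, Sp5 of 113 to 235 and Notum under 100 normalized counts. The GFP-negative cluster, at ratios of −2.18 to −1.68, held the highest Axin2, Sp5 and Nkd1. Day 0 libraries had ratios that overlapped with that range, −2.20 to −1.96, and 366 to 736 normalized counts of Axin2, 78.7 to 146 of Nkd1, 15.98 to 39.1 of Sp5 and 1560 to 3330 of Notum. Live cells of days 1 and 2 had ratios of −3.34 to −3.02, a range that 1 day 3 library shared, with low Sp5 and, on day 1, high Notum. The targets did not order the clusters alike: Nkd1 was higher in all GFP-positive than in all day 3 libraries, whereas Notum was lower in all of them.

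**Figure D4:**
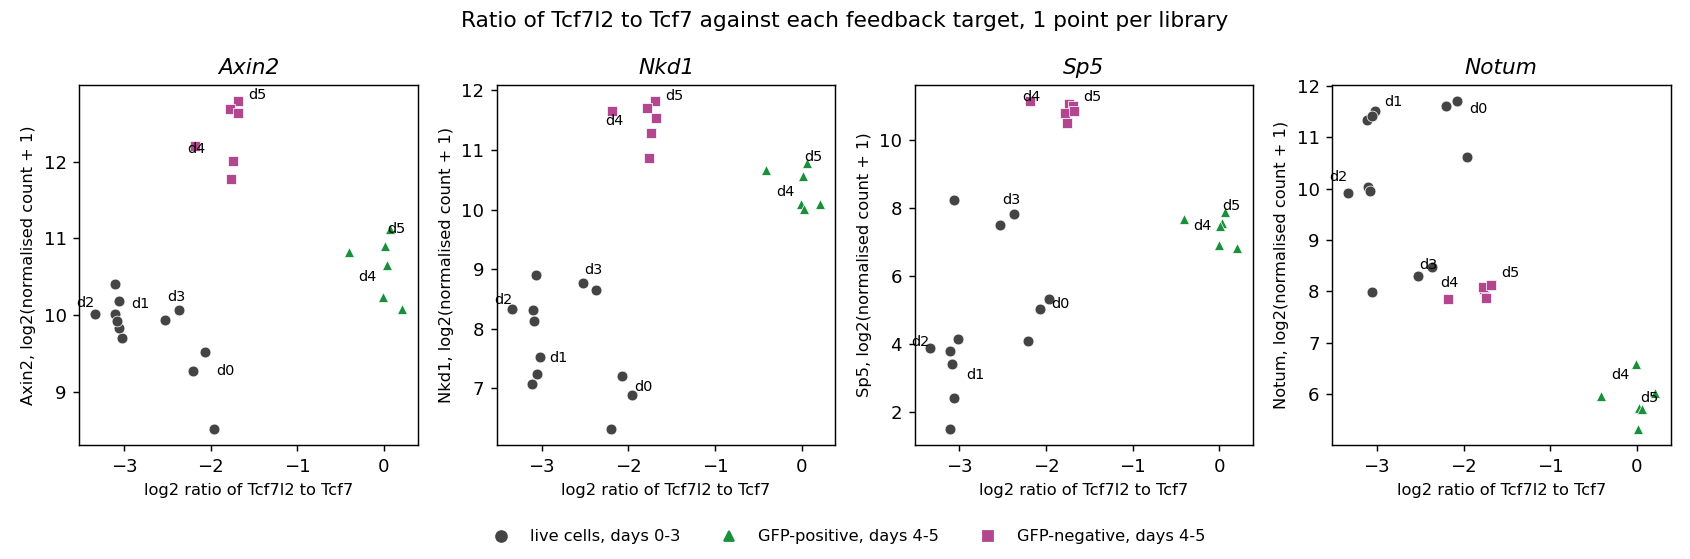
Each panel plots 1 feedback target, as log2(normalised count + 1), against the log2 ratio of Tcf7l2 to Tcf7 in the same library, with 1 point for each of 24 libraries. GFP-positive libraries sit together at a ratio near 0, and GFP-negative libraries hold the highest Axin2, Nkd1 and Sp5 at ratios of −2.18 to −1.68.

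Ratios between targets show that they were not read out in 1 proportion. Axin2 over Notum, as a log2 ratio within each library, climbed from −2.20 ± 0.12 (SD, n = 3) on day 0 through 0.017 ± 0.066 on day 2 and 1.81 ± 0.34 on day 3 to 4.21 ± 0.66 in GFP-positive cells of day 4, overlapping with 4.08 ± 0.31 in the GFP-negative gate. By day 5 the ranges of this ratio were apart, at 5.28 ± 0.38 with GFP-positive sorting against 4.59 ± 0.069 with GFP-negative sorting. Axin2 over Nkd1 was 2.30 ± 0.67 on day 0, 2.70 ± 0.59 on day 1 and 1.29 ± 0.13 on day 3. It was 0.26 ± 0.34 in GFP-positive cells of day 4 against 0.73 ± 0.18 in the GFP-negative gate, with ranges that overlapped. On day 5 the latter ratio was 0.28 ± 0.11 against 1.01 ± 0.069, with no overlap.

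Other parts of the pathway were read from lists drawn up by function. Among 13 genes of the destruction complex and its upstream kinases, 1 was called from day 3 to day 4 GFP-positive cells (3.33% of all genes up) and the median difference was 0.11, against −0.012 over all tested genes. It was Apc2, a neural relative of Apc, which had 230 ± 31.2 normalized counts (SD, n = 3) on day 3 and 1321 ± 117.7 in GFP-positive cells (2.52, adjusted p = 3.64e-07). By the second rule 2 of the 13 rose, Apc2 included, and 1 fell (17.1% and 20.9% of all genes). The 1 that fell was Btrc, the substrate receptor that marks β-catenin for destruction (−1.16, adjusted p = 2.85e-08). Between the gates none of the 13 was called on either day, where 3.63% of all genes were called lower and 0.328% higher on day 4 and 4.61% and 0.4% on day 5, with medians of 0.14 and 0.062. By the second rule 2 were higher and 1 lower in GFP-positive cells on day 4 (4.43% and 11.3% of all genes). None passed it on day 5 (3.78% and 12.3%).

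Of 15 nuclear partners of β-catenin and Tle corepressors, 1 was called up and 1 down from day 3 to day 4 GFP-positive cells (3.33% and 7.36% of all genes), with a median of 0.20. Pygo1, an adaptor that helps β-catenin activate transcription, rose from 69.3 ± 26.6 to 540 ± 24.7 normalized counts (3.01, adjusted p = 1.66e-09) and was also called in GFP-negative cells (2.22, adjusted p = 8.8e-07). Tle5, a short family member that lacks most of the repressor domains, fell by 1.68 (adjusted p = 4.01e-08). By the second rule 5 of the 15 rose and 2 fell, called genes included (17.1% and 20.9% of all genes). Tle1, a full-length corepressor, was among the 5 that rose, at 1.39 (adjusted p = 6.12e-09). Between the gates none was called on day 4 (3.63% of all genes lower, 0.328% higher), when 4 of the 15 were higher and 3 lower by the second rule (4.43% and 11.3% of all genes). On day 5 Tle2 (−3.03, adjusted p = 3.46e-05) and Tle6 (−1.79, adjusted p = 2.04e-05) were called lower in GFP-positive cells, among 4.61% of all genes. On day 5 the list's median was 0.23 and that of all genes −0.0017, and by the second rule 5 of the 15 were higher (3.78% of all genes) and 3 lower (12.3%), the last being Tle5 (−1.30, adjusted p = 4.46e-06).

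The 13 other widely used Wnt target genes gave a mixed picture. From day 3 to day 4 GFP-negative cells 4 were called up and none down (2% and 0.871% of all genes), with a median of 0.50: Dkk1 (4.05, adjusted p = 9.25e-12), Sp8 (3.59, adjusted p = 3.22e-07), Apcdd1 (2.60, adjusted p = 4.56e-08) and Tnfrsf19 (2.03, adjusted p = 3.5e-08). Dkk1 encodes a secreted antagonist of Wnt receptors and Apcdd1 a membrane antagonist. Towards GFP-positive cells, where 3.33% of all genes were called up and 7.36% down, 2 were called up, Sp8 (3.44, adjusted p = 9.01e-08) and Dkk1 (3.15, adjusted p = 3.16e-11), and 2 down, Ascl2 (−3.14, adjusted p = 3.33e-07) and Tnfrsf19 (−1.94, adjusted p = 9.68e-09), with a median of −0.058. Between the gates on day 4, Tnfrsf19 (−3.97, adjusted p = 4.81e-12) and Ascl2 (−2.20, adjusted p = 0.000103) were called lower in GFP-positive cells, none was called higher (3.63% and 0.328% of all genes), and 6 of 13 were lower by the second rule (11.3%). On day 5 Tnfrsf19 (−2.63, adjusted p = 5.25e-10), Apcdd1 (−2.01, adjusted p = 8.84e-07) and Ascl2 (−1.76, adjusted p = 0.000974) were called lower and none higher (4.61% and 0.4% of all genes). Apcdd1 stood then at 1388 ± 133.4 normalized counts in the GFP-positive gate and at 5604 ± 472 in the other.

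Of 8 primitive streak genes known to respond to Wnt, 6 were called up from day 3 to day 4 GFP-negative cells (2% of all genes) and all 8 passed the second rule upward (9.49%), with a median of 2.36. Between the gates 6 were called lower in GFP-positive cells on each day (3.63% and 4.61% of all genes), with medians of −3.74 and −4.09. The largest differences on day 4 were those of Mixl1 (−4.54, adjusted p = 2.56e-07), Evx1 (−4.52, adjusted p = 5.71e-07) and Cdx2 (−4.25, adjusted p = 5.97e-07). Evx1 had 795 ± 319.6 normalized counts in GFP-negative and 38.5 ± 26.9 in GFP-positive cells. Markers of other cell types moved with the gates. The summed level of 7 mesendoderm markers, of which Mixl1 is also among the primitive streak genes, was 5699 to 8645 in GFP-negative and 259 to 627 in GFP-positive cells on day 4, and 4419 to 5018 against 223 to 422 on day 5. All 7 were called lower in GFP-positive cells on both days. The sum of 6 posterior neural markers was 5350 to 7106 against 3388 to 3760 on day 4 and 9196 to 11527 against 5002 to 5530 on day 5. Of these, 5 (En1, En2, Gbx2, Irx3 and Wnt1) were lower by the second rule on both days (11.3% and 12.3% of all genes), with 3722 to 5422 in GFP-negative and 225 to 388 in GFP-positive cells as the range of their sum on day 4, and 8157 to 10472 against 843 to 1123 on day 5. The remaining marker, Pax2, also a gene of the optic vesicle, was set apart after its values were seen. On day 4 its mean was 1773 ± 204 (SD, n = 3) with GFP-negative sorting and 3288 ± 132 with GFP-positive sorting (0.90, adjusted p = 0.122), and on day 5 it was called higher in GFP-positive cells (2.23, adjusted p = 0.000142). Of 5 endothelial markers all 5 were lower by the second rule on day 4 and 4 on day 5 (11.3% and 12.3% of all genes), with sums of 1008 to 1846 against 138 to 264 on day 4 and 1462 to 2119 against 729 to 892 on day 5. Of 7 surface ectoderm and neural crest markers 4 were called lower on each day, with sums of 7961 to 11969 against 4637 to 5208 on day 4 and 7978 to 12116 against 3162 to 3384 on day 5. None of these markers was at 0 in all libraries of any group, and the part of such cells in the gate differences of the 9 members, factors and targets alike, was not tested.

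All 7 genes known to be repressed by Tcf7l1 in mESCs (Nanog, Esrrb, Klf2, Tfcp2l1, Nr0b1, Tbx3 and Nr5a2, factors of naive pluripotency) were called down from day 3 to day 4 GFP-positive cells (7.36% of all genes), with a median of −4.27. Tcf7l1 itself differed by −0.013 between these groups. The 7 had all been called down already from day 0 to day 3 (6.12% of all genes), with a median of −2.49, where Tcf7l1 differed by 0.25 (adjusted p = 0.461), or by −0.23 without day 0 replicate 1. The largest falls from day 3 to day 4 were those of Nr0b1 (−4.78, adjusted p = 1.22e-08), Klf2 (−4.65, adjusted p = 1.14e-11), Esrrb (−4.63, adjusted p = 1.59e-10) and Nr5a2 (−4.27, adjusted p = 3.72e-09). Towards GFP-negative cells none was called (0.871% of all genes down) and 4 passed the second rule downward (9.01%), with a median of −0.89. Between the gates all 7 were called lower in GFP-positive cells on both days (3.63% and 4.61% of all genes), with medians of −3.32 and −3.89. The sum of 5 pluripotency markers, of which Nanog is also on the list, was 15541 to 17302 in GFP-negative and 1190 to 2466 in GFP-positive cells on day 4, and its part in these differences was not tested.

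The genes whose course over the 24 libraries was most like that of a member are given as a description. For Axin2 they were Lrig1 (Pearson r = 0.945), Pax7 (0.937) and Apcdd1 (0.936), and for Sp5 Pappa (0.978), Samd3 (0.964) and Grrp1 (0.964). For Lef1 they were Zcchc24 (0.856), Cxcl10 (0.836) and Ccr7 (0.834), and for Tcf7l1 Cdhr1 (0.856), Gm26666 (0.776) and Cbx3-ps6 (0.757). These libraries share groups, so the values for Axin2, Sp5 and Lef1 mostly describe differences between groups. For Tcf7l1 the day 0 libraries alone spread from 3370 to 11707 normalized counts, so its values may also reflect that spread within a group.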

How the data were processed

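PolyA RNA was sequenced in 24 libraries. The deposited values are a normalized signal per gene: per the labels, the authors pseudo-aligned reads with kallisto 0.43.1 and computed counts normalized by size factors with DESeq2 (version not given in the sources used here) for mm10. The strand setting is not given there either. The deposited table also holds 9 columns of the authors' own calls, which were not used. All per-sample columns were matched to a sample by the labels.

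Values were transformed as log2(value + 1), so fold changes of low genes are understated, and 21005 genes that reached 10 normalized counts in 3 or more libraries were fitted in R 4.3.3 with limma 3.58.1 (eBayes with trend). All 24 libraries shared 1 fit of 8 groups. P-values were adjusted by Benjamini-Hochberg over all these genes, contrast by contrast. The median residual SD was 0.308. Spreads are those between the replicates as labelled, of pooled organoids, and may be partly technical. The members, the lists and the rule for named genes (all members, and up to 4 called genes, or the 2 largest changes, per list and contrast) were chosen with earlier results of these data known. Btrc, Tle1 and, on day 5, Tle5 were named outside that rule. Of the 98 listed genes all were found. Replicate numbers were checked for pairing: same-numbered libraries deviated together with a mean correlation of −0.00054 over 84 pairs of libraries. No block was used in the fit described. Most of these pairs join different days, so this mean cannot show whether the gates of a day are paired. By the methods of the study, samples of days 4 and 5 were sorted into both gates, so the gates of a day may share organoids. The fit treated them as independent. In a test on simulated data for day 4 GFP-positive against day 3 (19897 genes, 50 planted per size), 0, 34, 48 and 45 changes of 1, 2, 3 and 4 on the log2 scale were called. Python 3.11.15 with numpy 2.4.6, pandas 2.3.3 and matplotlib 3.10.9 was used for summaries. Promoter sequences were those of RefSeq, and transcript lengths those of GENCODE. The settings varied were the pseudocount (0.5 and 5), the filter (none, or 50), quantile normalization, no trend, only the groups compared, other thresholds, the replicate block, and leaving out each library.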

Additional observations from a re-analysis of the deposited data

How the results depend on the processing

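Counts of called members were within 1.5 times of those reported under every pseudocount, filter, normalization and trend setting tried. With an adjusted p below 0.05 and a fold threshold of 1 on the log2 scale, 1 member (Sp5) was called for day 1 against day 0 and 1 (Notum) for day 2 against day 1, where there had been 0, 4 (Tcf7, Tcf7l2, Notum and Nkd1) for day 4 GFP-positive against day 3 in place of 1, and 5 (Tcf7, Axin2, Sp5, Notum and Nkd1) between the gates of day 4 in place of 3. A fit of only the groups compared called 1 member (Notum) for day 3 against day 0 in place of 3, from fewer samples to estimate the spread. Leaving out 1 library gave 0 to 1 calls for day 1 against day 0 (Sp5, without day 1 replicate 1) and 1 to 2 for day 4 GFP-positive against day 3, and no called member lost its call in those fits. Under quantile normalization 4 log2 differences close to 0 changed sign, to 0.012 for Tcf7l1 (day 2 against day 1), 0.014 for Tcf7 (day 3 against day 2), 0.021 for Tcf7l1 (day 4 GFP-positive against day 3) and −0.0013 for Ctnnb1 (change of the gate difference). The cause was not tested. None of these passed a threshold.

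Leaving out each library in turn kept 2499 of the refitted values on their side of the threshold, moved 38 past it, took 14 below it and changed the sign of 41, all of which had passed no threshold. That threshold was the call rule for called values and the second rule for the others. A value that had passed the second rule and gained a call therefore counts as kept. For day 1 against day 0 the range was −0.34 to 0.56 for Tcf7l1, −0.30 to 0.059 for Tcf7l2, −0.46 to 0.11 for Ctnnb1 and −0.23 to 0.32 for Notum. For day 2 against day 1 the range was −0.053 to 0.019 for Tcf7l1, −0.030 to 0.091 for Lef1 and −0.13 to 0.22 for Axin2. For day 3 against day 0 the range was −0.23 to 0.66 for Tcf7l1, −0.11 to 0.23 for Lef1 and −0.075 to 0.49 for Ctnnb1. For day 4 GFP-positive against day 3 the range was −0.072 to 0.051 for Tcf7l1. For GFP-positive cells, day 5 against day 4 the range was −0.15 to 0.029 for Tcf7l1, −0.11 to 0.20 for Tcf7l2 and −0.22 to 0.11 for Lef1. For GFP-negative cells, day 5 against day 4 the range was −0.027 to 0.13 for Tcf7l2 and −0.22 to 0.10 for Sp5. For day 5 GFP-positive against day 0 the range was −0.28 to 0.14 for Tcf7 and −0.31 to 0.58 for Tcf7l1. For the change of the gate difference the range was −0.16 to 0.15 for Tcf7l2, −0.20 to 0.087 for Axin2 and −0.013 to 0.38 for Nkd1.

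The replicate number as a block left the counts of called members as they were and moved 1 member past the second rule, Axin2 in GFP-positive cells, day 5 against day 4 (0.63, adjusted p = 0.0486). The labels share numbers across groups without saying that a number marks a culture or day, and same-numbered libraries correlated between −0.28 and 0.40 in their deviations. A library correlated best with its own number in 48 of 168 comparisons with another group. Between 35.8% and 76.2% of low values were whole multiples of the worth of 1 read (within 0.1), so whole reads were not recovered, the count models named for that case were not run, and depth limits mainly Sp5 of days 0 to 2.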
